A study of Homo sapiens with 80 samples.

Results

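Nuclear long noncoding RNAs are transcripts that code for no known protein and act as RNA, most of them inside the nucleus. The 7 members described here were NEAT1, MALAT1, KCNQ1OT1, TUG1, NORAD, OIP5-AS1 and PVT1. They were found as the rows of the deposited count table whose Ensembl gene identifiers carry these symbols, and all 7 were present among 60663 genes. Jurkat T cells, a line grown from a human T cell leukaemia (clone E6-1, so a single clone), were exposed to 9 g hypergravity on a pipette centrifuge, to 300 g in a laboratory centrifuge or to heat, and total RNA was sequenced after removal of ribosomal RNA. The 9 g groups, with 6 libraries each, were named hypg20s, hypg75s, hypg3, hypg5, hypg7, hypg9, hypg15 and hypg60, for 20 and 75 s and for 3, 5, 7, 9, 15 and 60 min. Cells held at 1 g for 15 min (Ctrl) were the control for every 9 g time up to 15 min, and cells held at 1 g for 60 min (Ctrl60) were the control for hypg60. In the other experiment, with 4 libraries per group, cells were spun at 300 g and lysed 1, 4 or 15 min after the stop (wait1min, wait4min, wait15min) or kept at 42 °C (heat), and untreated cells lysed directly were their control (Ctrl300). These names follow the sample titles and treatment labels. The column names of the count table differ from them in 3 groups, where Ctrl60 carries a note of added HEPES (a buffer), the group wait1min is called instant, and wait4min is called 1min. A difference in buffer and the 60 min of exposure in hypg60 against Ctrl60 therefore cannot be told apart here, and the waits of 1 and 4 min are as the titles give them. Library 75 of hypg15, which had the lowest total (17205655 counts) and 0% of counts in mitochondrial genes, against at least 1.16% in every other library, was left out, which leaves 5 libraries in that group.

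NEAT1 is the RNA scaffold of paraspeckles, nuclear bodies in which proteins and edited RNAs are held, and it is known to be raised by cellular stress. MALAT1 is an abundant RNA of nuclear speckles, where splicing factors are stored. KCNQ1OT1 silences genes of its imprinted neighbourhood, TUG1 and PVT1 are linked to gene regulation and to cancer, and NORAD and OIP5-AS1 bind RNA-binding proteins and are known from the cytoplasm as well as from the nucleus. Long RNAs that stay in the nucleus are degraded largely by the nuclear exosome and its helper complexes.

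On GRCh38, NEAT1 (ENSG00000245532) was annotated at chr11:65422774-65445540 and MALAT1 (ENSG00000251562) at chr11:65497688-65506516, both on the plus strand of the same locus. KCNQ1OT1 (ENSG00000269821) covered chr11:2608328-2699994 on the minus strand, as 1 exon inside KCNQ1 and opposite to it. TUG1 (ENSG00000253352) lay at chr22:30969245-30979395 on the plus strand, NORAD (ENSG00000260032) at chr20:36045618-36051018 on the minus strand as 1 exon, and OIP5-AS1 (ENSG00000247556) at chr15:41283990-41309737 on the plus strand, opposite OIP5. PVT1 (ENSG00000249859) lay on the plus strand of another chromosome, with 229 exon records. The summed exon length ran from 5401 bases in NORAD to 91667 bases in KCNQ1OT1. The GC content of the longest annotated transcript was 38.4% in OIP5-AS1, 40.3% in MALAT1, 41.6% in NORAD, 43.1% in TUG1, 43.7% in KCNQ1OT1, 44.1% in NEAT1 and 52.2% in PVT1. The first 6 of these lay between percentiles 8.75 and 31 of the genes with a mean count of at least 10. Counting used strand, which keeps KCNQ1OT1 apart from KCNQ1 and OIP5-AS1 apart from OIP5. Reads over short genes on the same strand inside NEAT1, MALAT1, TUG1, OIP5-AS1 and PVT1 were not assigned to either gene.

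MALAT1 had the highest level of the members and the largest rise after 300 g, and its promoter windows are therefore shown. Each runs from 250 bases before an annotated RefSeq start to 50 bases after it (GRCh38.p14, plus strand), with the bases that follow 3′ of the window belonging to the transcript. The first start window lay at chr11:65497488-65497787 with a GC content of 73.7%, and the second at chr11:65498795-65499094 with 46%.
MALAT1 upstream start: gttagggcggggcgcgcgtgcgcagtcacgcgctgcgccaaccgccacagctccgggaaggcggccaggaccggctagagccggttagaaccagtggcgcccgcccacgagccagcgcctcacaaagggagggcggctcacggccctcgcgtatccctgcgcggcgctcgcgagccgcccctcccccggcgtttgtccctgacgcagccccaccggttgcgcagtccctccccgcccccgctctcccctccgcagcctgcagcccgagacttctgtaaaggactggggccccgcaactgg
MALAT1 downstream start: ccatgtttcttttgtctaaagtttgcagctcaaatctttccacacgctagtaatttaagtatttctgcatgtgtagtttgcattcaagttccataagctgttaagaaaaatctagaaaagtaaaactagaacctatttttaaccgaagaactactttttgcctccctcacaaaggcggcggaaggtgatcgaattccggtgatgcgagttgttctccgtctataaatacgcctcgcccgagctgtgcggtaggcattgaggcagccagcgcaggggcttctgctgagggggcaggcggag
Neither window held the facing pair of heat shock element units GAANNTTC (searched on both strands), and neither did the windows of TUG1, NORAD and OIP5-AS1. NEAT1, KCNQ1OT1 and PVT1 were not searched. This motif occurred in 6.77% of all 35116 promoter windows of that length. No match says only that these letters were not in these windows.

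NORAD is known for a series of Pumilio elements, the sites by which it binds RNA-binding proteins such as PUM2, and the stretch of its transcript richest in them is shown with each element in capitals (chr20:36049481-36049730, minus strand, bases 1231 to 1480 of the GENCODE 29 transcript).
NORAD elements: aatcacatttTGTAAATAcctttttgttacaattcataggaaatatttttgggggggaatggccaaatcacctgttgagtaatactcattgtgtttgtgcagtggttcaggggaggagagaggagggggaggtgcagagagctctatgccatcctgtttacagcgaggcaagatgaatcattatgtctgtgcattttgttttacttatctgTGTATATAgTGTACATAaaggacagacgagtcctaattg
The 5339 bases of the NORAD transcript held 15 matches to TGTANATA on the sense strand, or 2.81 per kilobase, and 3 of them fell in this stretch. Of 1985 longest transcripts within 500 bases of that length, 43.1% held any match and 3, NORAD included, held as many as 15. NEAT1 held 6 matches, KCNQ1OT1 9, TUG1 2, OIP5-AS1 1, and MALAT1 and PVT1 none.

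The libraries of the 9 g experiment held 22634465 to 41893490 counted fragments (median 31727864) and those of the 300 g and heat experiment 24417717 to 41220541. T cell genes such as CD3E (378 to 612 CPM, counts per 1000000 counts) were present in each library, while the B cell gene MS4A1, the monocyte genes CSF1R and LYZ and the epithelial gene EPCAM stayed at or near 0, at most 0.155 CPM. Other markers of such cells were not at 0, with CD14 of monocytes at 0.0872 to 0.724 CPM, the collagen gene COL1A1 at 3.67 to 9.04 CPM and the B cell receptor gene CD79A at 30.4 to 68.7 CPM, and their part in the results was not tested. The library numbers run from 69 to 80 for hypg3 and hypg15 and from 1 to 48 for the rest of the 9 g experiment, so the number series cannot be told apart from these 2 exposure times. Nothing in the labels states that libraries of a group came from separate cultures, and p-values measure the spread between libraries. In these bulk samples, a change in RNA per cell and a change in the share of cells cannot be told apart. Fold changes are relative to all counted RNA of a library and give no amount per cell.

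Per length, MALAT1 was by far the most abundant member in cells at 1 g. In Ctrl its level was 61.2 ± 18.5 RPKM (counts per kilobase of exon and per 1000000 counts, scaled by TMM, the trimmed mean of M values, SD, n = 6), against 15.5 ± 2.56 RPKM for NORAD. OIP5-AS1 reached 6.18 ± 0.576 RPKM and TUG1 5.85 ± 0.922 RPKM, and these neighbours in the order overlapped. NEAT1 followed with 1.8 ± 0.677 RPKM, PVT1 with 0.48 ± 0.0358 RPKM and KCNQ1OT1 with 0.108 ± 0.026 RPKM, and no other neighbours overlapped between libraries. The exon union of PVT1 and the long single exon of KCNQ1OT1 enter these values as the length. In Ctrl300 the order was the same, and OIP5-AS1 (8.79 ± 0.471 RPKM, n = 4) and TUG1 (7.18 ± 0.658 RPKM) did not overlap. The spread between libraries of Ctrl differed between members. NEAT1 and MALAT1 varied most, with coefficients of variation of 37.6% and 30.2%, while PVT1 varied by 7.47%.

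**Figure D1:**
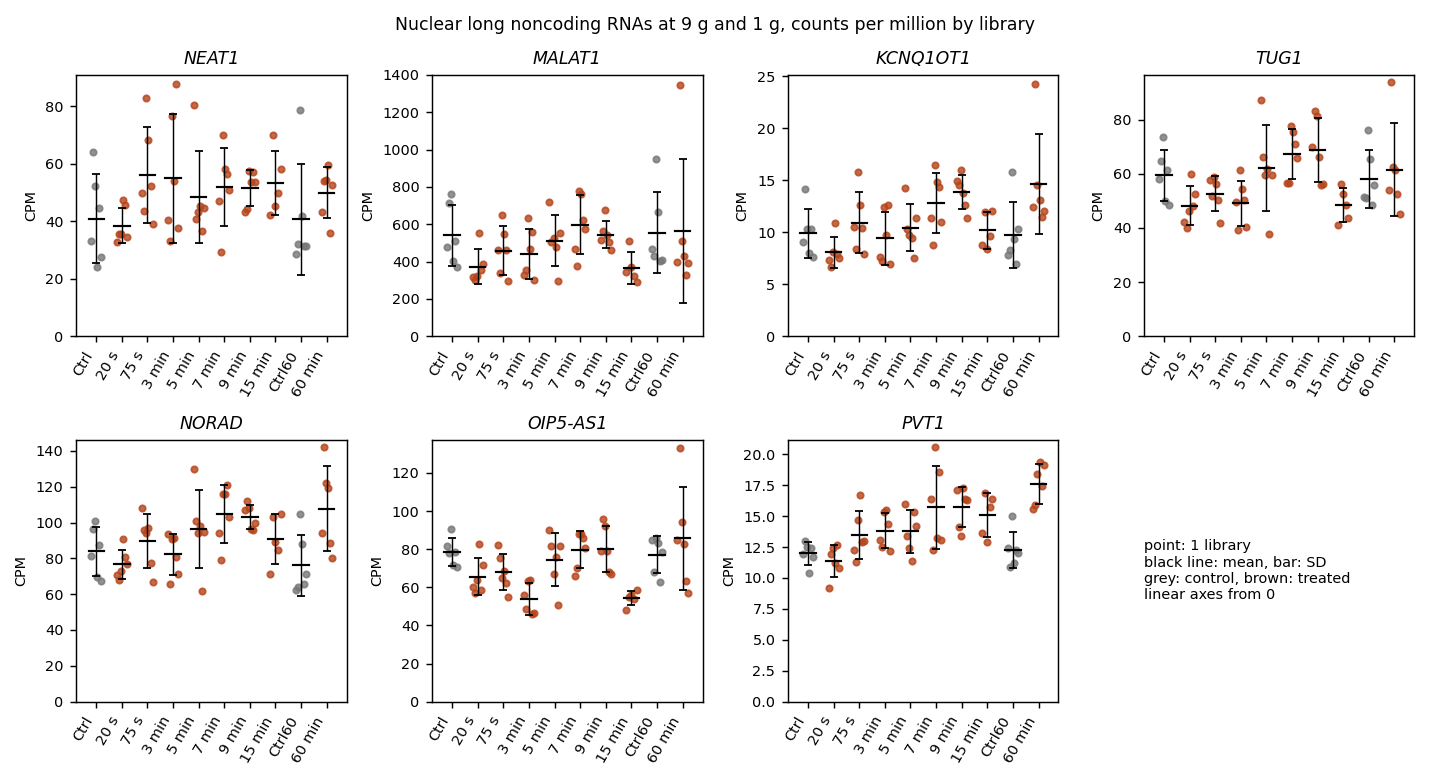
CPM (scaled by TMM) of the 7 members in the 59 libraries at 9 g and 1 g, with 1 panel per member, 1 point per library, the mean as a line and the SD as a bar, on linear axes from 0. OIP5-AS1 sat lower in hypg3 and hypg15 than in Ctrl, PVT1 sat higher from 7 min on, and library 44 of hypg60 stood above its group for MALAT1 (1344 CPM), KCNQ1OT1 and TUG1.

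At 9 g the 7 members did not move as a group. OIP5-AS1 fell at 3 and 15 min, MALAT1 and TUG1 fell at 15 min, and PVT1 rose at 7, 9, 15 and 60 min, with KCNQ1OT1 and NORAD rising beside it at 9 and 60 min. NEAT1 passed the test at no 9 g time. The changes were small, none past 1.51-fold, and were tested with edgeR's quasi-likelihood test at a Benjamini-Hochberg adjusted p under 0.05 over all genes tested. At 15 min 53.4% of all genes were called, and the members' calls there were lost with a correction for GC content. With surrogate variables as covariates the OIP5-AS1 call at 3 min was lost, and PVT1 turned lower, not called, at each of its times. Values are given in CPM scaled by TMM, which allows comparison of a gene between libraries.

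In the first 75 s no member passed the main test. After 20 s, 0 of 7 members were called, while 15.2% of all genes tested were, and 3 members had an unadjusted p under 0.05 (5095 of 16137 genes). The nearest were OIP5-AS1, at a log2 fold change of -0.26 ± 0.09 (SE, adjusted p = 0.0506), MALAT1 at -0.53 ± 0.18 (adjusted p = 0.0561) and TUG1 at -0.30 ± 0.11 (adjusted p = 0.0653). All 3 were called lower with no filter on low counts, OIP5-AS1 and TUG1 with DESeq2, and OIP5-AS1 with RLE size factors. MALAT1 ranged from 304 to 552 CPM in hypg20s (median 340) and from 370 to 764 CPM in Ctrl (median 495), and the groups overlapped. The median of the members was -0.26 on the log2 scale and that of all genes was 0.00. After 75 s, 0 of 7 members were called beside 31.3% of all genes, 1 member having an unadjusted p under 0.05 (6734 of 16261 genes). The members' median was then 0.11, and NORAD was called higher with the GC correction (0.26).

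OIP5-AS1 was the 1 member called lower at more than 1 time of 9 g. It ranged from 70.4 to 90.4 CPM in Ctrl (median 78.1) and from 46 to 63.6 CPM in hypg3 (median 52.1). All 6 libraries of hypg3 lay below all 6 of Ctrl, and the log2 fold change was -0.56 ± 0.09 (adjusted p = 0.000288). It was the 1 member called at 3 min, when 41.3% of all genes were called. In hypg15 the 5 libraries read 48.3, 55, 55.7, 53.7 and 58.5 CPM, again all below Ctrl, at a log2 fold change of -0.53 ± 0.07 (adjusted p = 1.88e-05). The call at 15 min ended with a correction for GC content (-0.06 ± 0.07) and turned to 0.14 with 3 surrogate variables as covariates, with which the call at 3 min was lost too (-0.07). At 5, 7 and 9 min its level was close to Ctrl, with log2 fold changes of -0.07 ± 0.11, 0.02 ± 0.08 and 0.04 ± 0.08, none called. OIP5, the protein gene on the opposite strand, was called lower at 20 s (-0.24), 75 s (-0.25), 3 min (-0.33), 15 min (-0.29) and 60 min (-0.26), and at 20 s, 75 s and 60 min OIP5-AS1 was not called.

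At 15 min, 4 of 7 members were called, MALAT1, TUG1 and OIP5-AS1 lower and PVT1 higher, beside 53.4% of all genes (25.4% higher and 27.9% lower, or 4040 and 4437 genes). With the GC correction 2081 genes were called higher and 4721 lower, and with surrogate variables 33 and 41. MALAT1 read 345, 513, 369, 322 and 293 CPM in the 5 libraries of hypg15, of which 4 lay below the lowest Ctrl library of 370 CPM, and its log2 fold change was -0.55 ± 0.18 (adjusted p = 0.0178). TUG1 read 40.9, 56.2, 52.5, 48.6 and 43.8 CPM, against 48.5 to 73.5 CPM in Ctrl (median 59.6), and the groups overlapped (log2 fold change -0.30 ± 0.11, adjusted p = 0.0269). The call of MALAT1 was lost without library 80 (-0.48 ± 0.19, adjusted p = 0.0502), and that of TUG1 without library 2, 3, 5, 76 or 80 (-0.27 to -0.21). With library 75 included, OIP5-AS1 was the 1 member called (-0.49 ± 0.08, adjusted p = 0.000936), and MALAT1 (-0.50 ± 0.21), TUG1 (-0.27 ± 0.12) and PVT1 (0.07 ± 0.76), which is listed at 0 counts in library 75, were not. In 1 model of all groups the calls of MALAT1 (adjusted p = 0.0749) and TUG1 (adjusted p = 0.103) were lost. Both were also lost with the GC correction. With surrogate variables MALAT1 turned higher, not called, and TUG1 was called higher. NEAT1 (0.38 ± 0.21), KCNQ1OT1 (0.04 ± 0.15) and NORAD (0.11 ± 0.11) were not called. Without library 2 of Ctrl, NEAT1 was called higher at 15 min (0.56 ± 0.18, adjusted p = 0.0198) and at 9 min (0.51 ± 0.16, adjusted p = 0.0407).

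PVT1 was the member that rose most often at 9 g. It ranged from 10.4 to 13 CPM in Ctrl (median 12.1), from 12.3 to 20.6 CPM in hypg7 (median 14.8) and from 13.4 to 17.3 CPM in hypg9 (median 16.4). The hypg9 libraries all lay above Ctrl, at a log2 fold change of 0.40 ± 0.08 (adjusted p = 0.00224), while those of hypg7 overlapped it at 0.39 ± 0.12 (adjusted p = 0.0413). At 7 min PVT1 was the 1 member called, beside 12.8% of all genes (2108). In 12 fits that each left out 1 library, 1223 to 2747 genes were called. The PVT1 call was lost in 8 of these 12 fits (log2 fold changes 0.30 to 0.45 over the 12). In hypg15 PVT1 read 13.6, 16.9, 12.9, 15.7 and 16.4 CPM (0.33 ± 0.09, adjusted p = 0.00536). In hypg60 it ranged from 15.6 to 19.4 CPM (median 17.9), all above the 10.9 to 15 CPM of Ctrl60 (median 12.1), at 0.52 ± 0.09 (adjusted p = 0.000726). With 3 surrogate variables as covariates, PVT1 turned to -0.02 at 7 min, -0.09 at 9 min, -0.30 at 15 min and -0.19 at 60 min, none called.

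KCNQ1OT1 and NORAD rose together with PVT1 at 9 min and at 60 min. At 9 min 3 of 7 members were called, all higher, beside 19.6% of all genes. KCNQ1OT1 ranged from 11.4 to 16 CPM in hypg9 (median 14.2) and from 7.66 to 14.2 CPM in Ctrl (median 9.67), with 0.50 ± 0.13 on the log2 scale (adjusted p = 0.0142). NORAD ranged from 95.9 to 112 CPM in hypg9 (mean 103) and from 67.4 to 101 CPM in Ctrl (median 84.6), with 0.31 ± 0.09 (adjusted p = 0.0222). Both pairs of groups overlapped. None of the 3 calls was lost when any of the 12 libraries was left out. In 1 model of all groups the calls of KCNQ1OT1 and NORAD were lost (adjusted p = 0.0635 and 0.13), and with 3 surrogate variables as covariates they stood at 0.27 and 0.08, not called.

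At 60 min 3 of 7 members were called, all higher, beside 30.1% of all genes. KCNQ1OT1 ranged from 11.5 to 24.3 CPM in hypg60 (median 12.8) against 6.93 to 15.8 CPM in Ctrl60 (median 8.84), at 0.59 ± 0.22 (adjusted p = 0.0496). NORAD ranged from 80.2 to 142 CPM (median 107) against 62.3 to 105 CPM (median 68.4), at 0.51 ± 0.16 (adjusted p = 0.024). Both overlapped with Ctrl60. The KCNQ1OT1 call was also lost when libraries were scaled to total counts, and the NORAD call with surrogate variables (0.31). The KCNQ1OT1 call was lost in 9 of 12 fits without 1 library, among them the fit without library 44 (0.39 ± 0.17), and the NORAD call in 4 of 12 (without library 7, 8, 11 or 46). NEAT1 was not called (0.30 ± 0.22) but was without library 9 of Ctrl60 (0.64 ± 0.13, adjusted p = 0.00252), in which it stood at 78.9 CPM against a group median of 31.8 CPM.

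At 5 min 0 of 7 members were called, beside 6.02% of all genes, and 1 had an unadjusted p under 0.05 (3676 of 16284 genes). Between the 2 control groups, 0 of 7 members were called in Ctrl60 against Ctrl, with 0.0124% of all genes called and no member at an unadjusted p under 0.05 (578 of 16109 genes). The log2 fold changes of the members there ran from -0.15 (NORAD) to 0.04 (MALAT1).

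**Figure D2:**
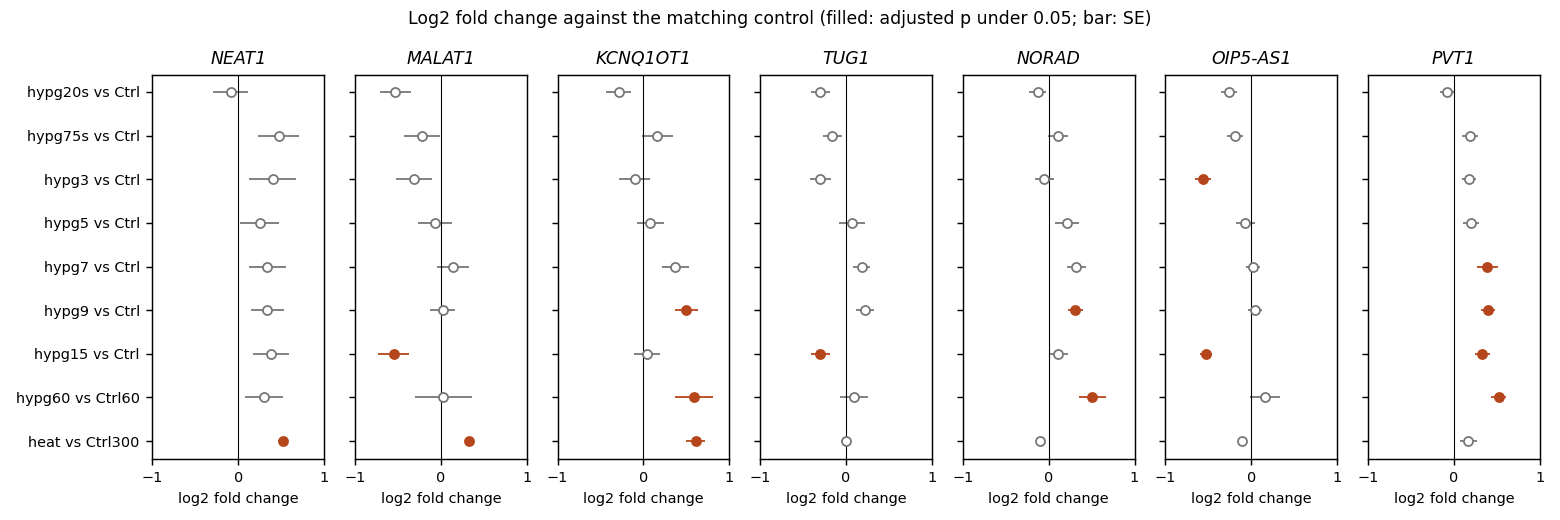
Log2 fold change of each member (1 panel each, x axis from -1 to 1) against its own control at the 8 times of 9 g and after heat, with the SE as a bar and filled points where the adjusted p was under 0.05. OIP5-AS1 was lower at 3 min (-0.56) and 15 min (-0.53), PVT1 was higher from 7 min on (0.33 to 0.52), and NEAT1 was filled only after heat (0.52).

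Some pairs of 9 g times were also compared directly, in a fit of the 59 libraries of the 9 g experiment. No member was called between 20 and 75 s (0.0669% of all genes called), between 75 s and 5 min (0.496%), between 5 and 7 min (0.0111%) or between 3 and 15 min (5.88%). From 7 to 9 min 0 of 7 members were called and 0% of all genes, with 505 of 17941 genes but no member at an unadjusted p under 0.05. Members at an unadjusted p under 0.05 numbered 3 between 20 and 75 s (1914 genes) and 0 between 75 s and 5 min (1641), between 5 and 7 min (956) and between 3 and 15 min (3235). The 3 were NEAT1 (0.54 ± 0.23, adjusted p = 0.381), KCNQ1OT1 (0.44 ± 0.19, adjusted p = 0.388) and PVT1 (0.24 ± 0.10, adjusted p = 0.38), each higher at 75 s. With surrogate variables, TUG1 was called higher at 5 min than at 75 s (0.15 ± 0.04, adjusted p = 0.019), and TUG1 (0.20 ± 0.05) and OIP5-AS1 (0.21 ± 0.07) were called higher at 15 than at 3 min. In a test for any difference among hypg20s, hypg75s, hypg5, hypg7 and hypg9, 3 of 7 members were called, beside 9.2% of all genes. These were PVT1 (adjusted p = 0.00499), KCNQ1OT1 (adjusted p = 0.0228) and TUG1 (adjusted p = 0.0304). TUG1 ran from a mean of 48.2 ± 7.28 CPM (SD, n = 6) in hypg20s to 68.7 ± 11.8 CPM in hypg9, and KCNQ1OT1 from 8.08 ± 1.49 to 13.9 ± 1.67 CPM.

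The levels of 6 members moved with the make-up of the libraries, whose part in the results at 9 g was not tested beyond the corrections given here. The share of counts in genes whose GC content was under 45% was 19.75 ± 1.21% in Ctrl (SD, n = 6), 16.55 ± 1.17% in hypg3 (n = 6) and 15.78 ± 1.32% in hypg15 (n = 5). The share was 19.05 ± 1.40% in hypg9, and 18.38 ± 2.93% in hypg60 against 19.6 ± 1.45% in Ctrl60. It was 18.02% in hypg20s, 17.97% in hypg75s, 18.93% in hypg5 and 19.67% in hypg7. Within groups, over the 59 libraries and on the log2 scale, TUG1 correlated with this share (members excluded) at Pearson's r = 0.95 and Spearman's rho = 0.95, MALAT1 at 0.87 and 0.84, OIP5-AS1 at 0.85 and 0.81, NORAD at 0.79 and 0.79, KCNQ1OT1 at 0.73 and 0.73 and NEAT1 at 0.54 and 0.58. Each of these 6 had a permutation p of 1e-05 for r and rho (two-sided, shuffled within groups, 1e-05 also after adjustment over the 7 relations), the smallest that 100000 permutations can give. PVT1, the member of highest GC content, did not correlate detectably (r = 0.10, permutation p = 0.5, adjusted 0.5; rho = 0.14, permutation p = 0.3, adjusted 0.3). Without the 2 libraries farthest from the median share, r was 0.95 for TUG1, 0.85 for MALAT1, 0.80 for OIP5-AS1, 0.77 for NORAD, 0.70 for KCNQ1OT1, 0.63 for NEAT1 and 0.21 for PVT1. The 6 members other than PVT1 are themselves under 45% GC, like the genes summed in the share. How other genes correlate with it was not computed. Mitochondrial genes took 1.49 ± 0.10% of counts in Ctrl and 2.29 ± 0.60% in hypg15. They took 1.28 ± 0.10% in Ctrl60 and 2.36 ± 0.25% in hypg60, and their part was not tested.

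**Figure D3:**
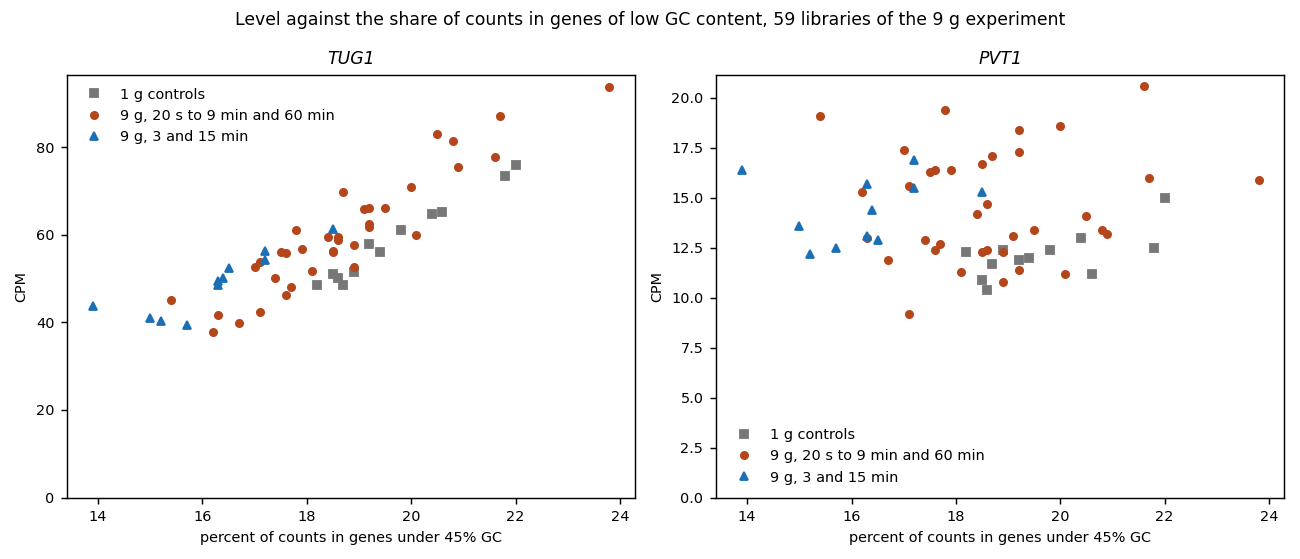
CPM of TUG1 (left) and PVT1 (right) against the percent of counts in genes under 45% GC, 1 point per library of the 9 g experiment, with 1 g controls as grey squares, hypg3 and hypg15 as blue triangles and the other 9 g groups as brown circles. TUG1 rose with the share in all 3 sets of libraries (r = 0.95 within groups), and PVT1 did not follow it (r = 0.10).

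When each library was corrected for the relation of counts to GC content, 4 calls at 15 min were lost and others appeared. OIP5-AS1 then stood at -0.06 ± 0.07, MALAT1 at -0.17 ± 0.14, TUG1 at -0.07 ± 0.08 and PVT1 at 0.17 ± 0.09, none called, while NEAT1 (0.55 ± 0.20, adjusted p = 0.0382) and NORAD (0.43 ± 0.10, adjusted p = 0.00284) were called higher. At 3 min OIP5-AS1 was still called lower (-0.25 ± 0.07, adjusted p = 0.0154). With 3 surrogate variables as covariates, MALAT1 turned to 0.38 at 15 min, not called, and TUG1 turned to 0.35 at 15 min and was called higher (adjusted p = 0.0103).

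After 300 g all 7 members rose, in each of the 3 groups, although OIP5-AS1 was called lower in all 3 (-0.31, -0.33 and -0.33) with a correction for GC content. In wait1min 7 of 7 members were called, all higher, whereas 81.5% of all genes were called and 41.4% were called higher. In wait4min all 7 were again called higher, beside 82.2% of all genes in either direction and 41.7% higher, and likewise in wait15min, beside 82.3% and 41.8%. The median log2 fold change of the members was 1.64, 1.61 and 1.61 after 1, 4 and 15 min, and that of all genes was 0.01 each time. Scaled to total counts, the median of all genes was 0.25 to 0.27 and 8527 of 17155 genes were called higher and 5218 lower in wait1min, in place of 7104 and 6882 (7552 and 4842 with the GC correction), with the 7 members higher still.

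**Figure D4:**
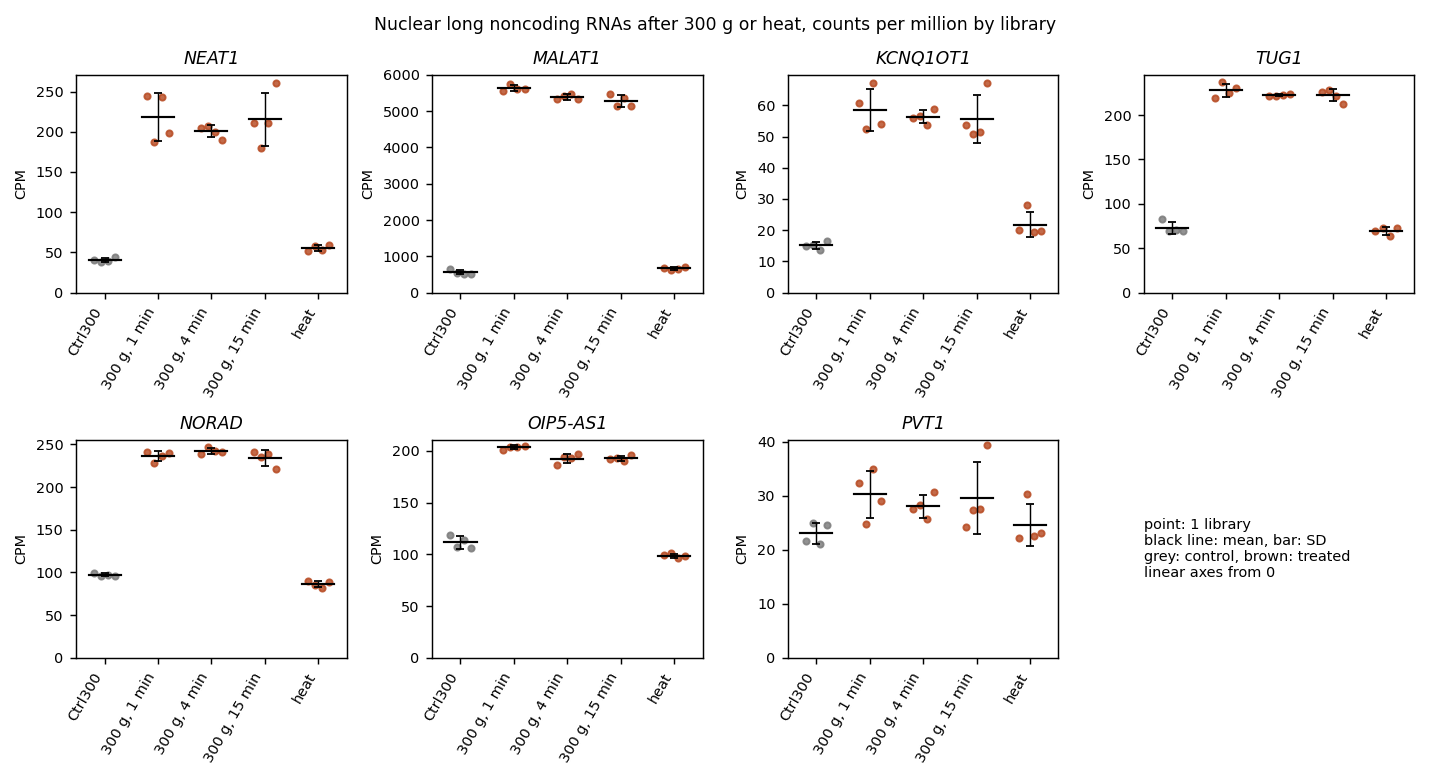
CPM (scaled by TMM) of the 7 members in the 20 libraries of the 300 g and heat experiment, 1 panel per member, 1 point per library, mean as a line and SD as a bar, on linear axes from 0. MALAT1 sat between 5140 and 5747 CPM in the 12 libraries after 300 g and between 521 and 705 CPM in the 8 others.

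MALAT1 showed the largest change of the members. It read 638, 540, 521 and 525 CPM in Ctrl300 and 5558, 5747, 5605 and 5614 CPM in wait1min. The groups were far apart, with a log2 fold change of 3.33 ± 0.06 (10.1-fold, adjusted p = 9.52e-17). In wait4min it read 5335, 5425, 5474 and 5329 CPM and in wait15min 5461, 5140, 5376 and 5149 CPM. Per length, it passed from 63 ± 6.24 RPKM in Ctrl300 to 638 ± 9.17 RPKM in wait1min (SD, n = 4).

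NEAT1, its neighbour on chromosome 11, rose 5.35-fold. It read 41.1, 38.1, 38.8 and 44 CPM in Ctrl300 and 244, 187, 243 and 198 CPM in wait1min (log2 fold change 2.42 ± 0.08, adjusted p = 9.31e-15). All treated libraries lay far above the control. KCNQ1OT1 read 15, 15.2, 13.6 and 16.6 CPM in Ctrl300 and 60.7, 52.3, 67.2 and 54.1 CPM in wait1min, without overlap (1.95 ± 0.08).

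TUG1 and NORAD rose by a smaller factor. TUG1 read 82.9, 69.7, 70 and 69 CPM in Ctrl300 and 219, 237, 225 and 230 CPM in wait1min (1.64 ± 0.05). NORAD read 99.7, 95.5, 97.1 and 96.2 CPM in Ctrl300 and 241, 228, 236 and 240 CPM in wait1min (1.27 ± 0.03). Neither overlapped with its control in any of the 3 groups. PUM2, a protein that NORAD binds, had a log2 fold change of 1.49 ± 0.05 (called).

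With TMM scaling OIP5-AS1 and PVT1 rose least, an order that changed with the GC correction. OIP5-AS1 read 119, 107, 114 and 106 CPM in Ctrl300 and 201, 204, 204 and 205 CPM in wait1min (0.86 ± 0.04), with no overlap, and OIP5 on the other strand was not called (0.07 ± 0.07). PVT1 read 21.6, 24.9, 21.1 and 24.6 CPM in Ctrl300 and 32.3, 24.8, 34.9 and 29.1 CPM in wait1min (0.39 ± 0.09, adjusted p = 0.000556). The lowest PVT1 library of wait1min and of wait15min lay inside the range of Ctrl300, while in wait4min, at 27.6, 28.2, 25.6 and 30.7 CPM, all lay above it.

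Between wait15min and wait1min 0 of 7 members were called, beside 0.149% of all genes (26, and 12 to 38 in fits without 1 library). Of the members, 2 had an unadjusted p under 0.05 (2192 of 17446 genes). These were MALAT1 (-0.09 ± 0.03, adjusted p = 0.299) and OIP5-AS1 (-0.07 ± 0.03, adjusted p = 0.317), whose libraries of wait15min all lay below those of wait1min. The log2 fold changes of the others between these groups ran from -0.07 to -0.01.

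The same libraries differed in make-up. The share of counts in genes under 45% GC was 19.7 ± 0.804% in Ctrl300 (SD, n = 4) and 37.3 ± 0.497% in wait1min, 36.33 ± 0.34% in wait4min and 36.33 ± 0.275% in wait15min. RN7SL1, the most counted gene in each library, took 3.81 ± 0.154% of counts in Ctrl300 and 1.75 ± 0.0507% in wait1min. Over all genes, the log2 fold change in wait1min fell with GC content (Spearman's rho = -0.69, taken over genes, and genes are no independent replicates). With the GC correction, after which the median of all genes was 0.13, MALAT1 stood at 2.45, NEAT1 at 2.18, KCNQ1OT1 at 1.66, TUG1 at 1.24, PVT1 at 0.84 and NORAD at 0.61 in wait1min, all called. OIP5-AS1, the member of lowest GC content, reversed to -0.31 ± 0.03 and was called lower (-0.33 in wait4min and in wait15min). Ctrl300 was lysed without a spin, so the spin and the handling around it cannot be told apart.

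**Figure D5:**
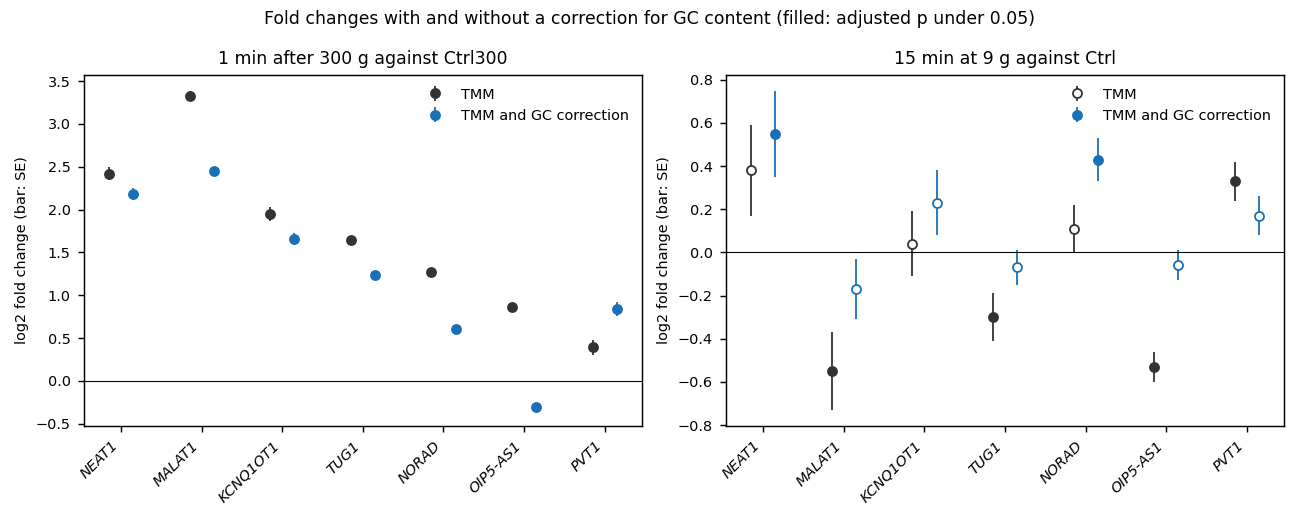
Log2 fold change of the 7 members with TMM scaling (black) and with a correction for GC content (blue), 1 min after 300 g (left) and after 15 min at 9 g (right), with the SE as a bar and filled points where the adjusted p was under 0.05. After 300 g, 6 members stayed higher and OIP5-AS1 went from 0.86 to -0.31. At 9 g, the 4 calls of the black points were lost.

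After heat NEAT1, KCNQ1OT1 and MALAT1 rose. At 42 °C 3 of 7 members were called, all higher, beside 20.8% of all genes (10.6% higher and 10.2% lower, or 1770 and 1691 genes). This split was 2252 higher and 1173 lower with total counts, and 1461 and 4027 in 1 model of all groups. NEAT1 read 51.8, 57.5, 52.7 and 58.8 CPM, all above Ctrl300 (0.52 ± 0.06, adjusted p = 8.66e-06). KCNQ1OT1 read 20, 28, 19.5 and 19.7 CPM, also all above (0.61 ± 0.11, adjusted p = 0.000942). MALAT1 read 685, 628, 644 and 705 CPM, where the lowest lay under the highest Ctrl300 library (0.33 ± 0.05, adjusted p = 0.000326).

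The other members did not pass the test after heat. NORAD read 89.8, 85.5, 82.3 and 88.3 CPM and OIP5-AS1 99, 101, 96.6 and 98 CPM, in both cases all below Ctrl300, with log2 fold changes of -0.10 ± 0.04 (adjusted p = 0.068) and -0.11 ± 0.04 (adjusted p = 0.063). The share of all genes whose groups lay apart in this way was not counted, here or in the other comparisons. TUG1 (0.00 ± 0.06) and PVT1 (0.17 ± 0.10) overlapped with Ctrl300. The share of counts in genes under 45% GC was 19.65 ± 0.265% after heat (n = 4). The 3 calls were kept with each alternative scaling, model and tool and with the GC correction (0.54 for NEAT1, 0.63 for KCNQ1OT1 and 0.38 for MALAT1).

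The proteins that work with these RNAs are given as counts from lists, beside the shares of all genes called higher and lower, which were 41.4% and 40.1% in wait1min, 10.6% and 10.2% after heat, and 25.4% and 27.9% in hypg15. All 3 splits moved with the scaling, the GC correction or the model, by the counts given with each comparison. Of 21 genes of paraspeckle proteins, 10 rose and 10 fell in wait1min (median log2 fold change 0.05), 1 rose and 9 fell after heat (-0.07), and 2 rose and 13 fell in hypg15 (-0.21). NONO and SFPQ, which hold NEAT1 in paraspeckles, stood at -0.73 ± 0.03 (called) and 0.05 ± 0.03 (not called) in wait1min. Of 21 nuclear speckle genes, 12 rose and 6 fell in wait1min (0.24), among them PNN (2.54 ± 0.06) and ALYREF (-1.12 ± 0.04), while 3 rose and 5 fell after heat (-0.01) and 4 rose and 14 fell in hypg15 (-0.29).

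Genes of nuclear RNA decay were split in direction after 300 g, as were all genes. Of 18 tested, 10 rose and 6 fell in wait1min (median 0.30), 1 rose and 3 fell after heat (-0.04) and 2 rose and 11 fell in hypg15 (-0.26). MTREX, the helicase that feeds RNA to the nuclear exosome, stood at 2.40 ± 0.06 in wait1min and at -0.98 ± 0.14 in hypg15, and DIS3, a catalytic subunit of the exosome, at 2.44 ± 0.07 and -0.75 ± 0.15, all called. EXOSC10, the other nuclear catalytic subunit, stood at -0.22 ± 0.04 and -0.23 ± 0.09, both called. Of 17 RNA-binding and chromatin partners, 8 rose and 8 fell in wait1min (0.00), 1 rose and 5 fell after heat (-0.04) and 1 rose and 12 fell in hypg15 (-0.18).

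Of 16 neighbouring genes tested, 2 rose and 11 fell in wait1min, where 40.1% of all genes were called lower, with a median log2 fold change of -0.59 against 0.01 for all genes. FRMD8, beside NEAT1, stood at -0.85 ± 0.04 and MORC2, beside TUG1, at -0.35 ± 0.04, both called lower. RBM39 near NORAD (1.05 ± 0.04) and NUSAP1 near OIP5-AS1 (0.66 ± 0.15) were the 2 called higher. After heat 1 neighbour rose and 1 fell, and in hypg15 6 rose and 4 fell. CDKN1C, an imprinted gene of the KCNQ1OT1 domain, fell by 0.79 ± 0.13 in wait1min and by 0.47 ± 0.10 in hypg60, rose by 0.32 ± 0.08 in hypg20s, and was not called at the other 9 g times, hypg9 (-0.02 ± 0.07) among them. CD81, another listed neighbour, fell by 0.95 ± 0.04 in wait1min. It rose by 0.17 ± 0.05 in hypg3 and by 0.31 ± 0.06 in hypg15, and was not called in hypg60 (0.02 ± 0.09).

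The members were also compared with each other across the 10 group means of the 9 g experiment. MALAT1 and TUG1 were alike (r = 0.93), as were TUG1 and OIP5-AS1 (0.86) and MALAT1 and OIP5-AS1 (0.83). KCNQ1OT1, NORAD and PVT1 were also alike (0.92, 0.89 and 0.88 for their pairs). These sets were not separate, with 0.75 for KCNQ1OT1 and TUG1, 0.66 for TUG1 and NORAD and 0.60 for MALAT1 and KCNQ1OT1, while NEAT1 was nearest to PVT1 (0.74) and not to MALAT1 (-0.04). Of the 8501 genes whose mean reached 10 CPM, those most like each member were FYCO1, LRP8 and PKD1P6 for NEAT1 (r = 0.943 to 0.949), YOD1, ZNF519 and ATP13A3 for MALAT1 (0.969 to 0.975), and TTC28, EMC3-AS1 and GARS1-DT for KCNQ1OT1 (0.972 to 0.977). For TUG1 they were VPS13B, MACF1 and EPM2AIP1 (0.965 to 0.976), for NORAD FAT1, SORL1 and ATP2B4 (0.956 to 0.979), for OIP5-AS1 PPM1K, KDM5A and FAM20B (0.986 to 0.989), and for PVT1 VPS13D, GLI3 and RBM4 (0.968 to 0.976). These values are descriptions over 10 means that share their libraries and make-up.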

How the data were processed

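Per the labels and the file header, the authors depleted ribosomal RNA, made directional paired-end libraries, trimmed reads with Trim Galore 0.6.5, aligned them with STAR 2.7.3a and counted fragments per Ensembl 104 gene with featureCounts (2.0.3 in the header, 2.0.1 in the submitters' notes), by strand and without multi-mapping or overlapping reads. The deposited values are raw counts. Members and lists were chosen with earlier results of these data known. 1 gene whose record was broken over 3 lines was dropped. Groups followed the sample titles where column names differed, and library 75 was left out. Counts were filtered at a minimum count of 10, scaled by TMM and tested with edgeR 4.0.16 (R 4.3.3), 2 groups per model, or 1 model of the 9 g set for steps and for any difference, with Benjamini-Hochberg adjustment. SE was the log2 fold change divided by the square root of F. Alternatives were no filter, total counts, RLE, DESeq2 1.42.0, GC correction (lowess, span 0.3), 1 model, 3 surrogate variables (sva 3.50.0), library 75 and leave-one-out. The members were named in each comparison, with some of the list genes that passed a log2 fold change of 1 or flank or bind a member. The 3 most alike genes by correlation were named too. List genes under that size were added for their known role after their values were seen. Promoter windows are from RefSeq and transcripts from GENCODE 29. Some genes of the lists, including some past a log2 fold change of 1, are counted but not reported by name here.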

Additional observations from a re-analysis of the deposited data

Results flagged for a closer look

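In 12 of 105 combinations of a member and a group, the highest library stood farther from the others than Dixon's 95% limit, which chance alone passes in about 1 of 20 groups. The members share their libraries, so the 105 combinations are not independent, and that rate cannot be set against the 12. Library 44 of hypg60 was highest for MALAT1 (1344 CPM), KCNQ1OT1 (24.3 CPM) and TUG1 (93.8 CPM). Library 9 of Ctrl60 was highest for NEAT1 (78.9 CPM) and PVT1 (15 CPM), and library 16 of hypg20s for MALAT1 (552 CPM) and KCNQ1OT1 (10.9 CPM). Library 49 of Ctrl300 was highest for MALAT1 (638 CPM) and TUG1 (82.9 CPM), library 66 of heat for KCNQ1OT1 (28 CPM) and PVT1 (30.4 CPM), and library 25 of hypg5 for NEAT1 (80.4 CPM). Each of these 6 libraries also had the highest share of counts in genes under 45% GC in its group, at 23.8% in library 44 (15.4% to 19.2% in the other hypg60 libraries), 22% in library 9, 20.1% in library 16, 20.7% in library 49, 19.9% in library 66 and 21.7% in library 25, and the part of this share in their levels was not tested.

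The levels of PVT1 (edgeR, adjusted p = 0.00499), KCNQ1OT1 (adjusted p = 0.0228) and TUG1 (adjusted p = 0.0304) differed among the 5 groups hypg20s, hypg75s, hypg5, hypg7 and hypg9. Of these groups, the steps from 20 to 75 s, 75 s to 5 min, 5 to 7 min and 7 to 9 min were compared, and none passed the test for these 3 members.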

How the results depend on the processing

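The number of members called out of 7 moved by over 1.5 times as follows. With no filter it was 3 at 20 s in place of 0, 2 at 3 min in place of 1 and 2 at 7 min in place of 1. With RLE it was 1 at 20 s and 2 at 3 min. With DESeq2 it was 2 at 20 s, 2 at 3 min and 2 at 7 min. With the GC correction it was 1 at 75 s in place of 0, 2 at 7 min, 5 at 9 min in place of 3 and 2 at 15 min in place of 4. In 1 model of all groups it was 1 at 9 min, 2 at 15 min and 5 after heat in place of 3. With surrogate variables it was 0 at 3 min, 1 at 5 min in place of 0, 1 at 9 min, 1 at 15 min, 1 for hypg5 against hypg75s and 2 for hypg15 against hypg3 in place of 0, while the genes called in all fell from 6685 to 1002 at 3 min, from 3215 to 158 at 9 min and from 8477 to 74 at 15 min. With library 75 it was 1 at 15 min. Smaller moves were 2 at 60 min in place of 3 with total counts, 4 at 60 min with the GC correction (OIP5-AS1 added, 0.39), and 4 there with surrogate variables, of which 1, KCNQ1OT1 (0.40), was among the 3 and MALAT1 (0.37), TUG1 (0.29) and OIP5-AS1 (0.32) were not, and 4 after heat with no filter and with DESeq2, where OIP5-AS1 was called lower (-0.12), and in the test for any difference 4 in place of 3 with the GC correction and 2 with surrogate variables. Without 1 library at a time it ranged from 1 to 2 at 3 min, from 0 to 3 at 7 min, from 3 to 4 at 9 min, from 2 to 4 at 15 min, from 1 to 4 at 60 min and from 3 to 4 after heat, and stayed at 7 after 300 g. The fits that left out libraries at 3, 7, 9 and 60 min were chosen after seeing the data. Directions reversed with surrogate variables for PVT1 at 7 min (-0.02), 9 min (-0.09), 15 min (-0.30) and 60 min (-0.19), for MALAT1 (0.38), TUG1 (0.35) and OIP5-AS1 (0.14) at 15 min and for TUG1 in hypg15 against hypg3 (0.20), and with the GC correction for OIP5-AS1 after 300 g (-0.31, -0.33 and -0.33). The causes were not tested. PVT1 was not called in wait15min by DESeq2 (0.34). No other member lost its call after 300 g under the alternatives run. No paired analysis was possible because the library numbers 1 to 80 are unique, and the groups compared share none.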
